A study of Mus musculus with 10 samples.

Results

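The genes described here are 10 transcription factor genes that specify the neural crest: Sox8, Sox9, Sox10, Foxd3, Tfap2a, Tfap2b, Ets1, Msx1, Msx2 and Nr2f1. They were taken by name from the 49671 genes listed in the counts of a bulk RNA sequencing study of mouse embryos at embryonic day 10.5, and each name matched a single row. All 10 embryos of that study carried the Wnt1Cre driver and the R26mTmG reporter on a mixed 129/Sv-C57BL/6 background, and green cells of single embryos were sorted, so each library is 1 embryo. The 5 control embryos were Trp53+/+ littermates, and the 5 embryos called p53_activated had the genotype Trp53LSL-25,26/+, in which Cre releases a stabilised p53 protein from an engineered allele beside a normal allele. Wnt1Cre acts in the dorsal neural tube, so the sorted cells can hold neural tube cells beside crest, and the reporter marks descendants of cells in which Cre acted, whatever they became. In such bulk libraries fewer cells of a type and less RNA per cell cannot be told apart.

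The neural crest forms at the border of the neural plate, leaves the neural tube and gives rise to the peripheral nervous system, pigment cells and much of the skeleton and connective tissue of the face. Signals such as BMP first switch on border genes, among them Msx1, Msx2 and the AP-2 genes. These genes help to switch on the specifiers, including Foxd3, Ets1 and the SOXE genes Sox8, Sox9 and Sox10. Later the same factors are kept in part of the descendants: Sox10 in glia, pigment cell precursors and enteric progenitors, Sox9 in skeletal precursors, and Msx genes in arch mesenchyme.

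None of the 10 genes passed the test between the groups, and the embryos of the groups overlapped for every one of them. Of 10 members tested, 0 were called at an edgeR quasi-likelihood adjusted p under 0.05, where 1050 (7.23%) of the 14528 tested genes were called. This was 0 members called higher, against 4.49% of all tested genes, and 0 called lower, against 2.74%. Groups without overlap were found for 1172 genes (8.07%) and for 0 members. At an unadjusted p under 0.05 there were again 0 members, against 22.6% of all tested genes, and DESeq2 and limma-voom also called 0 members. The estimates were below 0 for 6 members and above 0 for 4, and their median was -0.10 on the log2 scale, where all tested genes had a median of -0.01. The labels were checked on Cdkn1a, a p53 target that encodes the cell cycle inhibitor p21, which lay at 5.82 to 9.57 CPM (counts scaled to the size of the library) in control and at 90.8 to 117 CPM in p53_activated embryos.

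A missing call is not evidence of an equal level, so the intervals of the fold changes were read as well. For 6 of the members (Sox9, Sox10, Tfap2a, Tfap2b, Msx1 and Msx2) the 95% interval lay within a 1.5-fold change in either direction, and for 9 it lay within a 2-fold change. The exception was Sox8, whose interval ran from -1.31 to 0.38 on the log2 scale. These intervals come from the fit over all genes and are not widened for the number of genes read. In counts simulated for this comparison, 35.4% of genes changed 1.5-fold and 75.9% of genes changed 2-fold were recovered.

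Library totals lay between 12368058 and 28379562 counts. Control replicates 1 and 2 stood apart in a pair of stage-dependent readings. Hbb-y over Hbb-bh1, a ratio of globin genes, was 4.97 and 2.69 in them and ranged from 1.59 to 2.08 elsewhere. Lin28a was at 2.96 and 6.21 CPM in them and ranged from 10.8 to 24.8 CPM elsewhere. With this pair left out, as decided once the values were known, 0 members were called. The sorted cells held mesenchyme and glial markers of the crest, with no marker of either list at 0. They also held neural tube progenitor markers with a summed level of 208 to 339 CPM in control and 209 to 294 CPM in p53_activated embryos.

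Because p53 binds DNA at a known sequence, the promoters of the members were searched for it. Upstream windows of 250 bases were at hand for 7 of the 10 genes (9 windows, RefSeq, GRCm38.p6). The p53 half-site consensus, searched on both strands with matches allowed to overlap, occurred in 0 of these 9 windows and in 7.13% of the 32851 windows of all genes. Motifs of the members' own families were searched as well: GCCNNNGGC, bound by AP-2 factors, occurred in 1 window, of Nr2f1 (13.7% of all windows), and AACAAT, bound by SOX factors, in 0 (9.42%). These 3 searches were first made in windows of 300 bases, with the same members matching, and were shortened afterwards. A window without a match says only that these letters are not in it, and a match says only that they are. Binding of p53 to a matched half-site was not tested. Cdkn1a has 2 windows, at separate starts. The upstream one is shown because that gene rose and the window holds 2 matches, in capitals, while the other (chr17:29093519-29093768) holds 0. The Foxd3 window is shown because it belongs to the member with the largest estimated decrease after Sox8. The Cdkn1a window shown lies at chr17:29090729-29090978 and the Foxd3 window at chr4:99656049-99656298, both on the plus strand.
Cdkn1a: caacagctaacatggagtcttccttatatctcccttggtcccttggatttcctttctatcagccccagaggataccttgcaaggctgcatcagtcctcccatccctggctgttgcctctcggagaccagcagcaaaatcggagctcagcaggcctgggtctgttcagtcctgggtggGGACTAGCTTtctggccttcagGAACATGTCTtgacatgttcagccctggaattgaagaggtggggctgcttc
Foxd3: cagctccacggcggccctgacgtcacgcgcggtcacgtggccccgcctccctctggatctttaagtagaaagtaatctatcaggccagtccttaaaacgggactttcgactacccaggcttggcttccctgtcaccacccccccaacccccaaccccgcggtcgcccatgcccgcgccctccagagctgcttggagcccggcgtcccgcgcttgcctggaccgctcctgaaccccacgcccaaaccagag

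The members covered a wide range of levels, and their order was nearly the same in both groups. Per kilobase of exon, Msx1 was highest in control embryos with 46.5 ± 9.46 CPM per kb (SD, n = 5), followed by Nr2f1 with 23.1 ± 5.90 and Sox9 with 16.9 ± 3.66. Tfap2b, Sox10 and Foxd3 formed a middle group at 7.97 ± 1.40, 6.57 ± 1.19 and 4.69 ± 1.46 CPM per kb. The lowest were Tfap2a at 2.10 ± 0.485, Msx2 at 1.71 ± 0.298, Ets1 at 1.16 ± 0.105 and Sox8 at 0.853 ± 0.358 CPM per kb. Among neighbours in this order, the control embryos' ranges were separate between Msx1 and Nr2f1, between Sox9 and Tfap2b and between Foxd3 and Tfap2a, and overlapped between all other neighbours. In p53_activated embryos the order of the means was the same, but the ranges of Msx1 and Nr2f1 overlapped there. With the longest transcript as the length in place of all exons, Ets1 stood above Msx2 in the p53_activated group and the other ranks were the same. The levels themselves moved with this choice, and so do ratios of levels per length between members. In control embryos Msx1 was then at 74.4, Nr2f1 at 36.7, Tfap2a at 2.95, Msx2 at 2.29 and Ets1 at 1.94 CPM per kb.

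**Figure D1:**
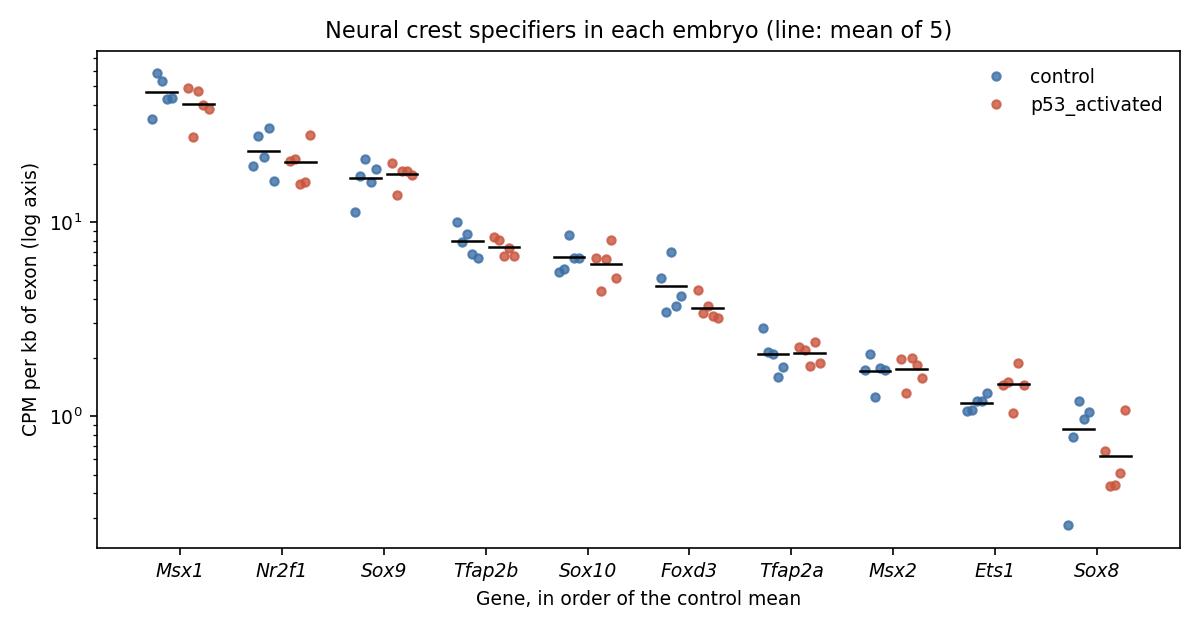
Level of each of the 10 genes in CPM per kilobase of exon on a log axis. Points are single embryos, blue for control and red for p53_activated (5 each), and lines are group means. Control means run from 0.853 for Sox8 to 46.5 for Msx1, and the colours overlap for every gene.

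The Msx genes encode homeodomain repressors that respond to BMP. Msx1 (ENSMUSG00000048450, GRCm38 chromosome 5 from 37820485 to 37824583) was at 106, 181, 165, 134 and 135 CPM in control replicates 1 to 5 and at 152, 85.0, 147, 124 and 119 CPM in p53_activated replicates 1 to 5. The lowest value was in p53_activated replicate 2 and the highest in control replicate 2, with the remaining embryos intermixed. Its log2 fold change was -0.20 ± 0.16 (SE, adjusted p = 0.52). Msx2 (ENSMUSG00000021469, chromosome 13 from 53466884 to 53473074) ranged from 4.11 to 6.84 CPM in control and from 4.31 to 6.55 CPM in p53_activated embryos, with a log2 fold change of 0.02 ± 0.21 (adjusted p = 0.963). Per kilobase of exon Msx1 exceeded Msx2 in every embryo, by 19.9 to 42.4 times in control and by 20.9 to 24.8 times in p53_activated embryos. Msx3, the family member of the dorsal neural tube, was at 53.1 ± 13.9 CPM in control and at 66.1 ± 14.2 CPM in p53_activated embryos (log2 fold change 0.31 ± 0.19, adjusted p = 0.372).

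The AP-2 genes Tfap2a and Tfap2b encode factors that act at the plate border and again in migrating crest of the head. Tfap2b (ENSMUSG00000025927, chromosome 1 from 19208914 to 19238576) was at 63.0, 49.8, 55.2, 43.5 and 41.2 CPM in the control replicates and at 53, 51.0, 42.5, 46.7 and 42.2 CPM in the p53_activated replicates. The p53_activated embryos all lay inside the control range. Its interval, from -0.37 to 0.16 around a log2 fold change of -0.10, was the narrowest of the 10. Tfap2a (ENSMUSG00000021359, chromosome 13 from 40715302 to 40738376) was at 14.0, 10.5, 10.3, 7.78 and 8.81 CPM in control and at 11.1, 10.7, 8.90, 11.8 and 9.16 CPM in p53_activated embryos. Here too the p53_activated values lay inside the control range, and the log2 fold change was 0.01 ± 0.18 (adjusted p = 0.986). The sign of so small an estimate turned with upper quartile scaling (-0.03) and with total counts (-0.00). Antisense genes share 14.64% of the exon length of Tfap2a, and the counted one of them, Gm26688, had at most 39 counts in a library against 121 to 357 for Tfap2a. Surface ectoderm also expresses Tfap2a, and the summed level of 8 epithelial markers was 72.7 to 177 CPM in control and 38.9 to 118 CPM in p53_activated embryos, with none of the 8 at 0. The control replicates highest in that sum, 4 and 5, were the lowest in Tfap2a, whereas among p53_activated embryos replicate 4 was highest in both and replicate 3 lowest in both. The part of these markers in the Tfap2a values was not tested.

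Tfap2a and Tfap2b had the highest correlation of the 45 pairs of members, and no pair passed after adjustment on the uncentred values. Over the 10 embryos Pearson's r of log2 CPM was 0.834 (permutation p = 0.00289, adjusted p = 0.13) and Spearman's rho 0.721 (permutation p = 0.0231, adjusted p = 0.52). Without control replicates 1 and 4, the 2 libraries farthest from the median of Tfap2a, r was 0.717. On values centred within each group r was 0.874, and permuting these over all 10 embryos, as planned, gave a permutation p of 0.00105 and an adjusted p of 0.0472, the 1 call among the 45 pairs. Permuting them only within the groups gave a permutation p of 0.00549 and an adjusted p of 0.153, with 0 calls. That second version was added after the first result had been seen, because centring removes degrees of freedom that the free permutation ignores, so the call depends on the permutation used. Per kilobase of exon Tfap2b exceeded Tfap2a by 3.47 to 4.32 times in control and by 3.07 to 3.70 times in p53_activated embryos. With the longest transcript as the length the gap was smaller, with control means of 8.62 for Tfap2b and 2.95 CPM per kb for Tfap2a.

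**Figure D2:**
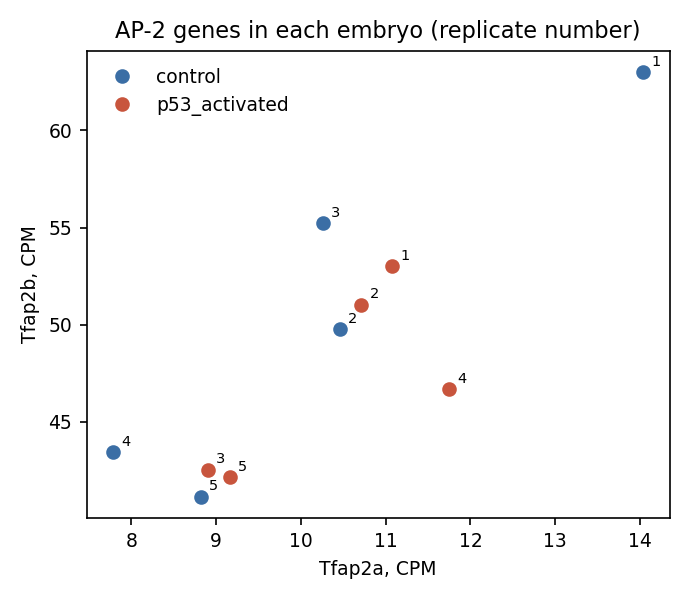
Tfap2a against Tfap2b in CPM, with 1 point per embryo labelled by its replicate number, blue for control and red for p53_activated. Control replicate 1 is highest in both genes, at 14.0 and 63.0 CPM, and the p53_activated embryos lie within the control ranges of both genes.

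The SOXE genes encode closely related HMG box factors that can stand in for each other in part. Sox9 (ENSMUSG00000000567, chromosome 11 from 112782224 to 112787760) was at 46.6, 71.6, 87.4, 66.4 and 77.1 CPM in the control replicates and at 83.4, 56.9, 75.9, 76.0 and 72.1 CPM in the p53_activated replicates. The p53_activated values again fell inside the control range, whose low end was control replicate 1. The log2 fold change was 0.06 ± 0.15 (adjusted p = 0.854) and -0.06 without that library. Sox10 (ENSMUSG00000033006, chromosome 15 from 79154908 to 79165240) was at 16.8, 17.5, 26.0, 19.8 and 19.96 CPM in control and at 19.8, 13.5, 19.6, 24.7 and 15.6 CPM in p53_activated embryos. Its highest value was in control replicate 3 and its next highest in p53_activated replicate 4, so that both groups held a high embryo. The log2 fold change was -0.10 ± 0.17 (adjusted p = 0.777), and 0.02 without control replicate 3.

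Sox8 (ENSMUSG00000024176, chromosome 17 from 25565892 to 25570686) was the rarest member, with 15 to 90 counts per control library and 21 to 48 per p53_activated library. It was at 0.853, 2.44, 3.74, 2.999 and 3.28 CPM in control and at 2.06, 1.37, 1.37, 1.58 and 3.33 CPM in p53_activated embryos. Control replicate 1 was the lowest of all embryos, while p53_activated replicate 5 stood among the high control embryos. The log2 fold change was -0.46 ± 0.40 (adjusted p = 0.546). Leaving out 1 library moved it to between -0.74 (without p53_activated replicate 5, adjusted p = 0.353) and -0.30 (without control replicate 3, adjusted p = 0.741), and it was not called. Without control replicate 1 it was -0.69 (edgeR adjusted p = 0.266). Without control replicates 1 and 2 it was -0.79 (edgeR unadjusted p = 0.0478, adjusted p = 0.251). The biological coefficient of variation of Sox8 was 42.0%, the highest of the members, whose others lay between 15.5% and 23.5%, with a median of 21.8% over all tested genes. An antisense gene, 2810468N07Rik, shares 10.55% of its exon length and had 62 to 117 counts per library. Whether the counting used strand is not stated in the labels or files, so the Sox8 values are uncertain. Per length Sox10 reached 0.332 to 0.488 times the level of Sox9 in control embryos and 0.293 to 0.440 times in p53_activated embryos.

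Foxd3, a forkhead factor that keeps crest progenitors undifferentiated and restrains pigment cell fate, and Ets1, an ETS factor of the cranial and cardiac crest, had the smallest p of the members. Foxd3 (ENSMUSG00000067261, chromosome 4 from 99656299 to 99658622) was at 11.9, 7.94, 16.4, 8.61 and 9.69 CPM in control and at 10.3, 7.93, 8.58, 7.64 and 7.49 CPM in p53_activated embryos. Control replicates 1 and 3 lay above every p53_activated embryo, and the other control embryos were mixed with them. The log2 fold change was -0.39 ± 0.21 (adjusted p = 0.282), with an interval from -0.82 to 0.05. Without control replicate 3 it was -0.18 (adjusted p = 0.624). Leaving out that 1 library moved the estimate by over 1.5 times.

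Ets1 (ENSMUSG00000032035, chromosome 9 from 32636221 to 32757820) was at 8.98, 9.04, 10.1, 10.1 and 11.1 CPM in the control replicates and at 12.2, 12.7, 8.84, 15.9 and 12.2 CPM in the p53_activated replicates. The control embryos lay close together, 4 p53_activated embryos lay above all of them, and p53_activated replicate 3 lay below all of them. The log2 fold change was 0.33 ± 0.17 (adjusted p = 0.262), the highest of the members. Leaving out p53_activated replicate 3 gave 0.44 (adjusted p = 0.136), the smallest adjusted p of any member under any setting tried. Leaving out p53_activated replicate 4 gave 0.22 (adjusted p = 0.478). Endothelial cells also express Ets1: 8 endothelial markers summed to 70.7 to 116 CPM in control and 79.1 to 107 CPM in p53_activated embryos. Of the 7 tested markers 0 were called, where 7.23% of all tested genes were. The lowest value was 0 for Cdh5 in both groups and for Tie1 in control embryos. The part of endothelial RNA in the Ets1 values was not tested.

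Nr2f1 encodes an orphan nuclear receptor, also called COUP-TFI, that binds enhancers of cranial crest genes. The gene (ENSMUSG00000069171, chromosome 13 from 78188973 to 78199757) was at 99.5, 141, 110, 156 and 82.5 CPM in control and at 105, 108, 79.2, 81.5 and 143 CPM in p53_activated embryos. High and low embryos occurred in both groups, with a log2 fold change of -0.19 ± 0.19 (adjusted p = 0.628).

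The authors' deposited table, which gives their own DESeq2 comparison, held no adjusted p under 0.259 for the members. In the authors' deposited table Ets1 had a log2 fold change of 0.304 with a standard error of 0.166, Foxd3 -0.34 with 0.193 and Sox8 -0.311 with 0.276. These fold changes were smaller in size than those of the DESeq2 fit made here, which gave 0.333, -0.388 and -0.466. The unadjusted DESeq2 p was the same in both (0.0668, 0.0778 and 0.259), so the sizes are not directly comparable.

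**Figure D3:**
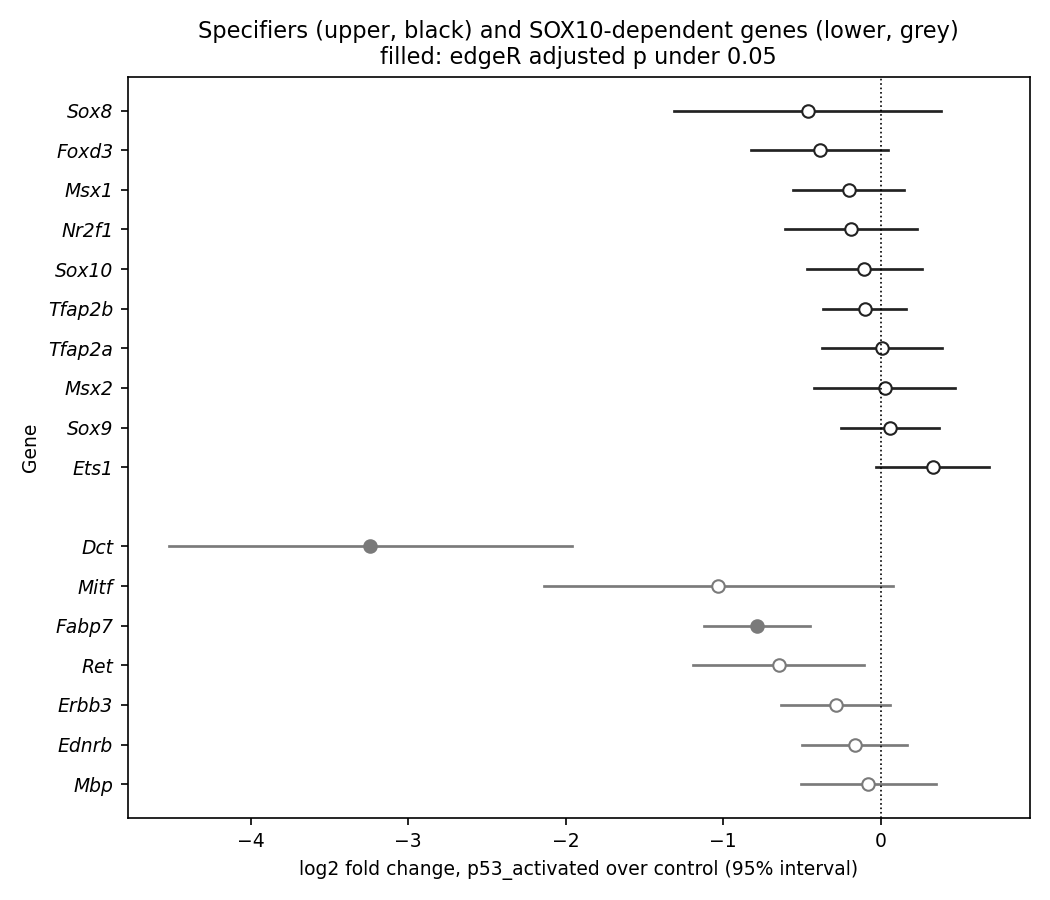
Log2 fold change of p53_activated over control with its 95% interval for the 10 specifiers (upper, black) and 7 tested SOX10-dependent genes (lower, grey). Filled points passed an edgeR adjusted p of 0.05: 0 of the specifiers and 2 of the SOX10-dependent genes, Fabp7 at -0.78 and Dct at -3.24.

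Genes that depend on Sox10 were read next, since Sox10 itself was not called. Of 8 genes of glia, enteric progenitors and pigment cells 7 were tested. Of these 2 fell and 0 rose, where 2.74% of all tested genes fell and 4.49% rose. All 7 estimates lay below 0, and the median was -0.65 on the log2 scale. The list was chosen with earlier results of these data known. Whether these genes depended on Sox10 in the sorted cells was not tested. The part of other cells in their values, such as neural tube progenitors and neurons, was not tested either. Fabp7, a fatty acid binding protein gene of glial precursors, was at 91.7, 104, 97.4, 105 and 104 CPM in control and at 83.0, 52.7, 62.0, 37.2 and 57.3 CPM in p53_activated embryos (log2 fold change -0.78 ± 0.16, edgeR adjusted p = 0.00767). Every p53_activated embryo lay below every control embryo for this gene, where 8.07% of all tested genes had no overlap in either direction. The same separation held for Dct, a pigment enzyme gene, at 11.2, 14.4, 5.15, 4.47 and 4.81 CPM in control and at 0.206, 0.368, 0.262, 2.04 and 1.04 CPM in p53_activated embryos (-3.24 ± 0.59, adjusted p = 0.00549). Its highest values were those of control replicates 1 and 2. Ret, a receptor gene of enteric progenitors (-0.65 ± 0.25, adjusted p = 0.141), Mitf, a regulator of pigment cells (-1.03 ± 0.52, adjusted p = 0.258), the neuregulin receptor gene Erbb3 (-0.28 ± 0.16, adjusted p = 0.327) and the endothelin receptor gene Ednrb (-0.17 ± 0.16, adjusted p = 0.592) did not pass. The sign of the Ednrb estimate turned without control replicate 1 (0.03). Without control replicates 1 and 2 Fabp7 lost its call (-0.81, adjusted p = 0.0511). Across all settings tried, 1 to 2 genes of the list were called lower.

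Relative to Sox10 in the same embryo, 0 of the 7 genes passed after adjustment. These ratios, 7 to Sox10 and 8 to Sox9, were not planned and were added once the fold changes had been seen, so their p-values are descriptive. The log2 ratio of Dct to Sox10 was -2.31 to -0.28 in control and -5.96 to -3.52 in p53_activated embryos. The ranges were separate, and the difference was -3.29 ± 0.65 (SE; exact two-sided permutation p = 0.00794, adjusted p = 0.119 over 15 ratios). That p is the smallest 5 against 5 embryos can give, and a single ratio at it cannot pass the adjustment over 15. With 1 library left out the difference was -3.60 to -2.99. It was -2.60 without control replicates 1 and 2, and -4.04 without p53_activated replicates 4 and 5. Dct had 3, 7, 4, 62 and 15 counts in p53_activated replicates 1 to 5, so its lowest ratios depend on the prior count of 2. Fabp7 over Sox10 differed by -0.71 ± 0.29 (exact permutation p = 0.0238, adjusted p = 0.159) and Erbb3 over Sox10 by -0.17 ± 0.20 (exact permutation p = 0.397, adjusted p = 0.595). The Fabp7 difference was -0.45 without p53_activated replicate 4. The summed level of 4 markers of crest glia and progenitors, 3 of which are also in the list above, was 158 to 167 CPM in control and 109 to 136 CPM in p53_activated embryos, and 1 of the 4, Fabp7, fell. Fabp7 made up most of the difference in that sum, and Ngfr lay the other way (0.37 on the log2 scale, adjusted p = 0.546). The summed level of 7 neuronal markers was 633 to 852 CPM in control and 335 to 515 CPM in p53_activated embryos. Of the 7 markers 6 fell, where 2.74% of all tested genes fell. The part of the share of such cells in these ratios was not tested.

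**Figure D4:**
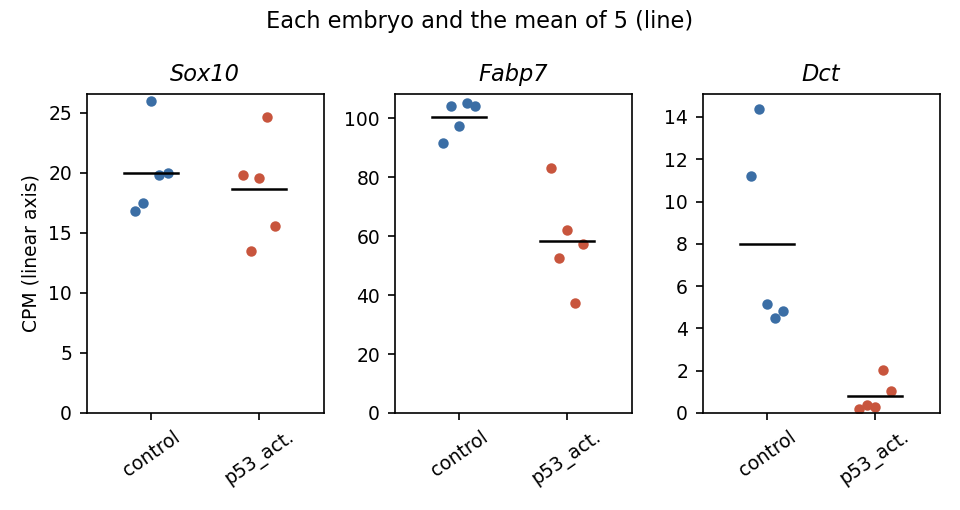
Level in CPM of Sox10 and of the 2 SOX10-dependent genes that fell, Fabp7 and Dct, each panel on its own linear axis from 0. Points are embryos (blue control, red p53_activated) and lines are means of 5. The groups overlap for Sox10 (16.8 to 26.0 against 13.5 to 24.7 CPM) and are separate in the other panels.

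Cartilage genes that depend on Sox9 did not move together. Of 11 listed 8 were tested, 1 rose and 0 fell, where 4.49% of all tested genes rose and 2.74% fell. Acan, Comp and Matn1 had too few counts to be tested, with control means of 0.380, 0.270 and 0.0227 CPM. Whether the tested genes depended on Sox9 or marked cartilage in the sorted cells was not tested. The part of other cells in their values, such as neural tube progenitors, was not tested either. The median of the 8 was -0.10 on the log2 scale. Col2a1, the main cartilage collagen gene, was at 75.8 to 106 CPM in control and at 113 to 281 CPM in p53_activated embryos (0.97 ± 0.21, edgeR adjusted p = 0.018). With control replicate 1 left out Col2a1 was not called (0.97, adjusted p = 0.058), and with p53_activated replicates 4 and 5 both left out it was at 0.60 (adjusted p = 0.0119). The other collagen genes with small p differed in sign and did not pass: Col9a3 was at -0.86 ± 0.27 (adjusted p = 0.0762), Col9a2 at -0.71 ± 0.26 (0.113) and Col11a1 at 0.60 ± 0.26 (0.178). Col9a3 was called by DESeq2 (-0.86, adjusted p = 0.011) and without control replicate 3 (-0.98, adjusted p = 0.0413), and Col9a2 without p53_activated replicate 4 (-0.92, adjusted p = 0.0397). Col2a1 over Sox9 differed by 0.82 ± 0.31 on the log2 scale (exact permutation p = 0.0317, adjusted p = 0.159), and 0 of 8 ratios to Sox9 passed after adjustment.

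The other transcription factors of the crest network were read against the shares over all tested genes, 7.23% called and 22.6% at an unadjusted p under 0.05. Of 9 neural plate border genes outside the members 0 were called by edgeR, DESeq2 or limma-voom (2 at an unadjusted p under 0.05). Of the 9 estimates 8 lay above 0, with a median of 0.30, where all tested genes had a median of -0.01. The members that act at the border, Msx1, Msx2, Tfap2a and Tfap2b, are not in this list and lay at -0.20, 0.02, 0.01 and -0.10. Pax7, a paired box factor of the border and dorsal neural tube, was at 4.15 to 6.56 CPM in control and 6.17 to 10.5 CPM in p53_activated embryos (0.61 ± 0.21, edgeR adjusted p = 0.0986). Zic2, a zinc finger factor of the border and dorsal neural tube, was at 3.15 to 7.58 against 7.79 to 9.24 CPM (0.57 ± 0.24, adjusted p = 0.167). Zic2 was the 1 border gene of the 9 whose groups did not overlap, where 8.07% of all tested genes had no overlap. Zic5 was at 0.40 ± 0.20 (adjusted p = 0.252).

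Of 13 other specifiers 3 had an edgeR unadjusted p under 0.05, against 22.6% of all tested genes. Against 7.23% of all tested genes called, 0 of the 13 rose and 1 fell. This was Snai2, the zinc finger repressor that helps crest cells to leave the epithelium, at 28.9, 21.1, 11.7, 12.9 and 10.6 CPM in control and at 8.47, 8.40, 7.07, 11.7 and 8.53 CPM in p53_activated embryos (-0.94 ± 0.26, edgeR adjusted p = 0.0416). The highest values were those of control replicates 1 and 2, without which the log2 fold change was -0.41 (adjusted p = 0.269). It was not called in 11 of the 21 alternatives, including those that left out control replicate 1 or 2 or p53_activated replicate 1, 2, 3 or 5 (adjusted p from 0.0743 to 0.102). The growth-promoting factors Mycn (0.42 ± 0.13, adjusted p = 0.0575) and Myc (0.89 ± 0.36, adjusted p = 0.146) did not pass. Mycn was called without control replicate 3 (0.53, adjusted p = 0.0189) and by DESeq2 (0.42, adjusted p = 0.033).

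Paralogs of the members and BMP genes gave 0 calls in 9 and 11 tested genes by edgeR and limma-voom and in 10 and 12 by DESeq2, with 1 and 0 at an unadjusted p under 0.05 in edgeR. The AP-2 gene Tfap2e had the smallest p of the paralogs, at 0.748 to 2.73 CPM in control and 0.624 to 1.15 CPM in p53_activated embryos (-1.06 ± 0.42, edgeR adjusted p = 0.142). The remaining paralogs with small p were Ets2 (-0.23 ± 0.14, adjusted p = 0.36) and Msx3. Erg, Tfap2d and Foxd4 had too few counts to be tested. Among BMP genes Id1, a direct target of the signal that also stands among the other specifiers, was at 110 ± 18.4 CPM in control and at 139 ± 34.1 CPM in p53_activated embryos (0.33 ± 0.16, adjusted p = 0.253). Without p53_activated replicates 4 and 5 Id1 was called (0.55, adjusted p = 0.0388). The ligand gene Bmp2 was at -1.01 ± 0.52 (adjusted p = 0.265) and the receptor gene Bmpr1b at 0.21 ± 0.16 (adjusted p = 0.474).

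Between embryos the members showed no common pattern. Of the 45 correlations 23 were positive and 22 negative, and 5 had a permutation p under 0.05 before adjustment, all with adjusted p of 0.13 or more. After the AP-2 pair came Sox9 and Msx1 (r = 0.713, rho = 0.624, permutation p = 0.0213 and 0.0593, adjusted p = 0.369 and 0.667), a relation that rested on control replicate 1 and p53_activated replicate 2, since r was 0.342 without them. Sox9 and Sox10 had r = 0.654 and rho = 0.733 (permutation p = 0.041 and 0.0203, adjusted p = 0.369 and 0.52), and r was 0.574 without the same libraries. Ahead of that pair in the p of r came Sox8 and Sox9 (r = 0.68, permutation p = 0.0257, adjusted p = 0.369). Sox8 and Tfap2a followed with a negative r of -0.667 (permutation p = 0.0347, adjusted p = 0.369). Without control replicates 1 and 3 these r were 0.201 and -0.544. The gene with the highest r over the 10 embryos, among 9963 searched, was Serinc5 for Sox9 (0.946), Psmd11 for Sox8 (0.942), Atpaf1 for Sox10 (0.873), Papd5 for Foxd3 (0.939), Phtf2 for Tfap2a (0.916) and Nemp2 for Tfap2b (0.934). For Msx1 it was Sobp (0.916), for Msx2 Ccdc138 (0.853) and for Nr2f1 Rps6kb1 (0.812). The next in each search were Tpmt for Sox8, Sft2d1 for Sox9, Scd1 for Sox10, Zfp820 for Foxd3, Zfp292 for Tfap2a, Hars2 for Tfap2b, Prkar2a for Msx1, Eml2 for Msx2 and Larp4 for Nr2f1. Ets1 was most like Inppl1 (0.916), which rose (log2 fold change 0.58 ± 0.16, edgeR adjusted p = 0.0379), and Thbs1 (0.914), which did not pass (0.99 ± 0.29, adjusted p = 0.0512). These genes were picked for their r, so the values describe the 10 embryos and carry no test.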

How the data were processed

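Polyadenylated RNA of sorted cells from 10 embryos was sequenced, with 1 library per embryo. The files deposited by the authors hold unnormalized counts for each Ensembl gene and their own comparison. Per the file headers the latter has a mean normalized signal, a log2 fold change and its error, a score (the Wald statistic) and raw and adjusted p-values. Tools named in the submitters' processing notes, with no role, are DESeq2 1.14.1, HTSeq 0.6.1, HISAT2 2.0.4 and SAMtools 1.3.1, and the build is GRCm38. No source states the annotation release or strand setting.

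Columns were matched to samples by the numbers in the labels. Genes were filtered with filterByExpr (minimum count 10, minimum total 15), scaled by TMM and tested over all 10 libraries by edgeR 4.0.16 (quasi-likelihood, robust, R 4.3.3), with Benjamini-Hochberg adjustment over 14528 genes and a threshold of 0.05. Adjusted p of single genes are from this test unless another is named. SE was taken as the size of the log2 estimate over the root of F. CPM are TMM-scaled, with a prior count of 2 on the log2 scale. Exon lengths, positions and overlaps are from GENCODE M21 (GRCm38), where 99.3% of the gene identifiers were found. Correlations used 100000 permutations, with a version added afterwards that ran all 14400 permutations within the groups for centred values. The ratios, compared by exact permutation, and the promoter searches were also added after results had been seen. The edgeR fit was tested on simulated data with 200 changed genes. Of 139 calls made there, 7 were false.

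All pairs of libraries differed by more than sampling noise, with a chi-square of 14.9 to 71.6 per degree of freedom. The embryos are separate animals. The members and lists were chosen with earlier results of these data known. Some genes of the lists are not reported here, and the counts, sums, ratios and adjustments over the ratios leave them out. Named genes are the members, the called genes of each list and up to 4 others of each list with the smallest p, the genes most alike (mean log2 CPM over 2, predicted genes left out). The alternatives were other scaling, filters and dispersions, DESeq2 1.42.0, limma-voom 3.58.1, the replicate number as a block and leaving out libraries.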

Additional observations from a re-analysis of the deposited data

Results flagged for a closer look

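In groups of 5 a value was marked when its gap to the nearest other embryo exceeded 0.71 of the group's range, which chance gives in about 1 of 20 groups. The 20 groups of the 10 specifiers were read first and 0 were marked. The reading was then extended to the other named genes, and of 74 groups in all (37 genes) 2 were marked. Mycn was at 32.5 CPM in control replicate 3, above the other control embryos. Ednrb, an endothelin receptor gene of crest progenitors, was at 52.3 CPM in control replicate 1, above the other control embryos, and was not called between the groups (edgeR adjusted p = 0.592).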

How the results depend on the processing

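Under 21 other settings 0 of the 10 specifiers were called, with a smallest adjusted p of 0.136 (Ets1 without p53_activated replicate 3). Of 210 member estimates 195 kept their sign. Those that turned were Tfap2a and Msx2 with upper quartile scaling (-0.02902 and -0.01119), Tfap2a with total counts (-0.00424), and, without control replicates 1 and 2, Sox9 (-0.081) and Tfap2b (0.012). Leaving out 1 library at a time gave -0.078 to 0.15 for Tfap2a, -0.064 to 0.11 for Msx2, -0.055 to 0.16 for Sox9 and -0.23 to 0.01968 for Sox10. All genes called lower numbered 661 with DESeq2 and 194 without control replicates 1 and 2. Leaving out 1 library gave 192 to 433 lower and 430 to 707 higher calls. The share of higher calls was 51.7% with upper quartile scaling, against 62.1%. Among the other specifiers 0 were lower with total counts, limma-voom, the replicate block, and without control libraries 1 and 2 or p53_activated libraries 4 and 5, and 0 to 1 were lower and 0 to 1 higher with 1 library left out. There, 1 was higher with DESeq2 and 1 without p53_activated libraries 4 and 5, a setting that called Id1, so that 1 BMP gene was also higher. Of the SOX9-dependent genes 0 were higher with every counted gene tested and without control libraries 1 and 2, 1 was lower with DESeq2, and leaving out 1 library gave 0 to 1 in each direction. Of the SOX10-dependent genes 1 was lower without control libraries 1 and 2. Of the 45 correlations 1 was called on centred values permuted over all embryos and 0 within groups or without the farthest libraries. The ratios to Sox10 and Sox9, an added test, could hardly pass with 5 or fewer embryos a group, so their 0 calls say nothing about stability. The log2 fold change of Ednrb was -0.2406 to 0.02855 with 1 library left out and 0.0598 without control libraries 1 and 2. Ratios near 0 turned sign: Ednrb (-0.14 to 0.21 with 1 library left out, 0.32 and 0.086 without control libraries 1 and 2 and without p53_activated libraries 4 and 5), Mbp (-0.1031 to 0.2121), Col11a2 (-0.01014 to 0.3601) and Hapln1 (-0.23 to 0.021, and 0.019 without p53_activated libraries 4 and 5). The replicate numbers share no stated origin. Same-numbered libraries had correlations of their deviations from -0.0529 to 0.113, and 1 of the 5 numbers correlated best with itself. With the replicate block 0 members were called (smallest adjusted p 0.345, Foxd3) and Snai2 lost its call (-0.86, adjusted p = 0.0548). Sox8 had as few as 15 counts in a library and also the highest biological variation of the members, and what each adds to its wide interval was not tested.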
